A study of Homo sapiens with 24 samples.

Results

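Olfactory receptor (OR) genes lie in large clusters, and 3 stretches of such clusters were followed here across OG-seq libraries of human HAP1 cells. The stretches were chosen by position as the 1 kb bins of GRCh38 in chr11:4380001-6200000, chr11:55500001-59500000 and chr1:247400001-247900000, called here the 11p15, 11q12 and 1q44 intervals. They hold 1820, 4000 and 500 bins, or 6320 of the 2835235 bins in the table of chromosomes 1 to 22 and X. No bin of the intervals was missing from the table. The annotation places 248 OR genes in them, with 101 in 11p15, 129 in 11q12 and 18 in 1q44, of which 56, 66 and 14 are listed as protein-coding. The intervals also start 17, 39 and 4 other protein-coding genes, so they are not made of OR genes alone.

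OG-seq maps 8-oxoguanine (OG), an oxidised form of guanine, by attaching biotin to it, pulling the labeled DNA fragments down on streptavidin and sequencing them next to input DNA. HAP1 is an established human line whose cells carry close to a single set of chromosomes. The cells were wild type (WT), deficient in the glycosylase MUTYH (MUTYH-/), deficient in the glycosylase OGG1 (OGG1-/), or deficient in both (DKO, labelled MUTYH-/ X OGG1-/), with 3 columns of the table for each genotype. No treatment separates the groups. OGG1 cuts out OG that faces cytosine, and MUTYH removes adenine that was put in opposite OG. Each genotype was represented by 2 clones, and the sample titles place 2 of its 3 libraries in the same clone. The DKO clones were derived from an OGG1-/ clone, and the table does not tie its columns to clones. The p-values below therefore measure the spread between columns, part of which may be within a clone. The knockouts are small insertions or deletions that a 1 kb bin does not show, so the level at the targeted genes checks nothing here.

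A deposited value is a score: the OG reads of a bin less the input reads after scaling. It was divided by the mean of its column over all bins, so that a relative value of 1 is the average of the genome. Whole reads could be recovered from the scores, and amounted to 59595212 to 113907880 OG reads per column, beside 78617458 to 101596698 reads of input. The WT columns had fewer OG reads (59595212, 64839166 and 86146575) than the DKO columns (94995988, 113907880 and 109201278). The part of this depth difference in the genotype comparisons was not tested.

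OR proteins are membrane-spanning receptors that bind odorants in sensory neurons of the nose. Their genes arose by tandem duplication, many copies have decayed to pseudogenes, and outside the olfactory epithelium most are silent in closed chromatin. Class I receptors (families OR51, OR52, OR55 and OR56) sit together in 11p15 and resemble the receptors of fish, while class II receptors lie in many clusters. Clusters of this kind are poor in G and C, and OG can form only at G. Expression was not analysed here, so the silence of these genes in HAP1 cells was not checked.

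The G+C content was 38.8% in 11p15, 39.6% in 11q12 and 39.7% in 1q44, compared with 40.9% over all bins. CpG dinucleotides numbered 6.93, 7.75 and 9.75 per kb, compared with 9.83 per kb over all bins. Bins within 50 kb of an OR gene, called OR-proximal (4824 bins), had a G+C content of 38.2%, while the other 1496 bins (OR-distal) reached 43.2%. To show the sequence behind these numbers, the OR-proximal bin with the highest mean relative value of each interval, and the lowest of 11p15, are given by 30 bases whose G+C share is closest to that of the bin, with G and C in capitals, all on the plus strand.
11p15 lowest bin, chr11:5159010-5159039: ttttCttataGaGatCttttaCttCttGGG
11p15 highest bin, chr11:4386001-4386030: ttGGtCCtGaCCtCtGaaGaaaCCatCttC
11q12 highest bin, chr11:58530020-58530049: tCCCataGtCttCaCaaaCCGCaGaCCtGG
1q44 highest bin, chr1:247870151-247870180: GCttCttaCaGtGtGtGatGGtCtCCaaGG

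The lowest 11p15 bin lay 4243 bases from OR52A1. Its mean relative value was -0.73, below 0 because scaled input exceeded the OG reads. The highest bins overlapped TRIM21, which encodes a cytosolic antibody receptor, LPXN, which encodes an adaptor of focal adhesions, and TRIM58, a ubiquitin ligase gene. They had mean relative values of 2.58, 2.73 and 2.52. Input reads in these bins, relative to the column mean, were 0.905, 1.01 and 2.12. Summed over columns, OG reads were 523, 576 and 860, and input reads 360, 398 and 843. The high value of the TRIM58 bin thus went with a high input, and that of the other bins did not. Single columns ranged from -0.77 to 4.76 in the highest 11p15 bin, so the level of 1 bin in 1 column is loosely measured. The bins were picked as extremes, and these values are a description.

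G-rich stretches that may fold into G-quadruplexes (G4) are a sequence context of interest for OG. A G4 motif was taken as 4 runs of at least 3 G separated by 1 to 7 bases on either strand. Such motifs numbered 655 in the intervals (104 per Mb) and 133 per Mb over all bins, and 73.4 per Mb in the OR-proximal bins. Of the interval bins 8.39% held at least 1 motif, compared with 9.70% of all bins. The motif of the highest OR-proximal bin holding one is shown for each interval, 5′ to 3′ on its own strand, with the G runs in capitals.
11p15 motif, chr11:6160501-6160524, plus strand: GGGcGGGGGtGGGGGGtaGGGGGG
11q12 motif, chr11:56260601-56260629, minus strand: GGGaggctgtGGGGGGtgctgaGGGtGGG
1q44 motif, chr1:247401162-247401190, plus strand: GGGGaaatGGGtggaaGGGagttgaaGGG
The bins that hold them had mean relative values of 1.88, 1.92 and 1.98. A match to these letters is a description and does not show that a G4 forms.

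The first comparison set each interval against the 2 Mb on either side. The OG signal was lower in the OR intervals than in the surrounding DNA in every column. Over the 6320 bins the relative value was 0.853, 0.838 and 0.868 in the WT columns and 0.806, 0.842 and 0.887 in the MUTYH-/ columns. It was 0.840, 0.797 and 0.856 in OGG1-/ and 0.864, 0.876 and 0.927 in DKO. All 12 columns were below the genome average of 1, and each knockout overlapped WT, while every DKO column was above every OGG1-/ column. In the 10098 flanking bins the relative value was 1.07 ± 0.0241 (SD, n = 12) compared with 0.855 ± 0.0350 in the intervals. The difference was -0.216 ± 0.0525 and was below 0 in 12 of 12 columns (exact two-sided sign-flip permutation test over columns, p = 0.000488, adjusted p = 0.000488, the smallest this test can give).

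The 11p15 interval differed most from its flanks. Its relative value was 0.780 ± 0.0606 (SD, n = 12; range 0.677 to 0.908) compared with 1.18 ± 0.0511 beside it, a difference of -0.395. The 11q12 interval was at 0.889 ± 0.0278 compared with 1.02 ± 0.0256, a difference of -0.128. The 1q44 interval was at 0.849 ± 0.0763 compared with 0.986 ± 0.0380, a difference of -0.137. Each of these differences was below 0 in 12 of 12 columns (exact two-sided sign-flip permutation test, adjusted p = 0.000488).

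**Figure D1:**
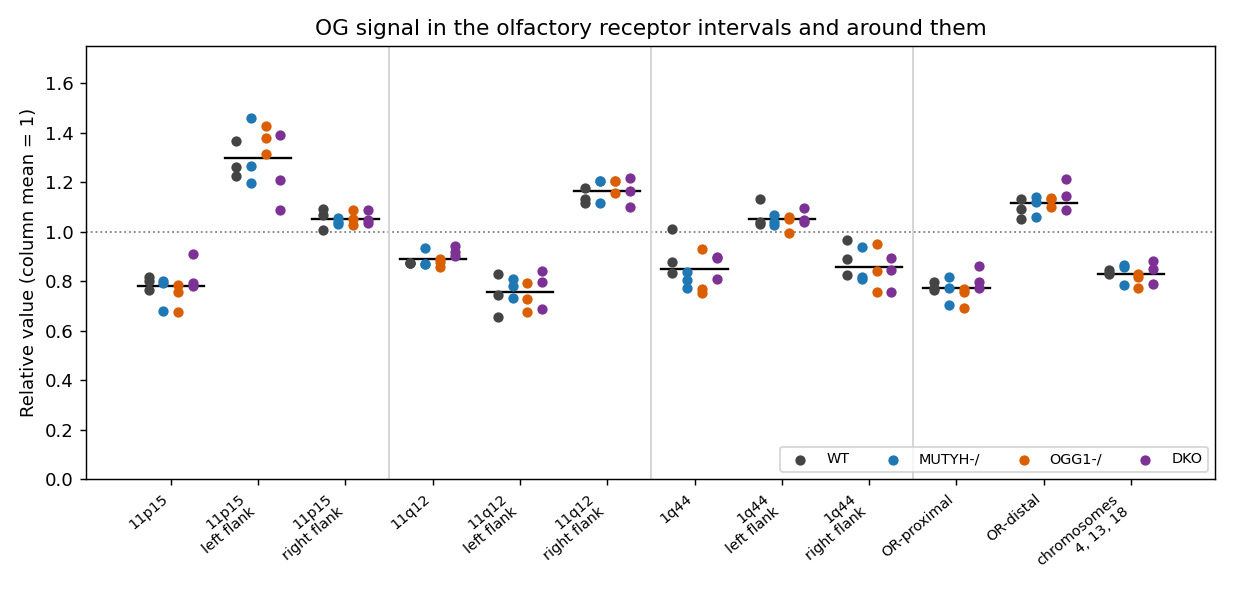
Relative OG value (y axis, column mean = 1) of the 3 OR intervals, of the 2 Mb on the left and the right of each, of OR-proximal and OR-distal bins, and of chromosomes 4, 13 and 18. Each point is a column, coloured by genotype, and bars are means of 12 columns. All 12 points of the pooled OR-proximal bins lie below 1 and all 12 of the OR-distal bins above 1, and in 11q12 the left flank lies below the interval (0.756 compared with 0.889).

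The sides of an interval were not alike. The left flank of 11q12 runs towards the centromere, has 1117 of 2000 bins in the table and holds 22 more OR genes, and its relative value was 0.756. The 11q12 interval was above it by 0.133 in 12 of 12 columns and differed from its right flank (1.17) by -0.277, below it in 12 of 12 columns (exact sign-flip permutation tests, both adjusted p = 0.000586). After centring at equal G+C content the direction against the left flank turned, to -0.0814 with 11 of 12 columns below (exact sign-flip permutation test, adjusted p = 0.00293). With flanks of 1 Mb, 11q12 differed from its surroundings by 0.0145 (adjusted p = 0.225, exact sign-flip permutation test). The right flank of 1q44 reaches the chromosome end with 39 more OR genes and was at 0.857. The 1q44 interval differed from it by -0.00837, with 7 of 12 columns below (exact sign-flip permutation test, adjusted p = 0.686), and from its left flank by -0.204 in 12 of 12 columns. When OR-proximal bins were taken out of the flanks, the differences became -0.449 in 11p15, -0.182 in 11q12 and -0.233 in 1q44.

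Input DNA was also read less often in the intervals. The relative input reads were 0.939 ± 0.0125 (SD, n = 12) in the intervals and 1.02 ± 0.0134 in the flanks, and the difference was -0.0814 in the pooled bins, -0.163 in 11p15, -0.0243 in 11q12 and -0.0660 in 1q44 (12 of 12 columns below in each, exact sign-flip permutation test, adjusted p = 0.000488). The ratio of relative OG to relative input reads was 0.975 ± 0.00939 in the intervals and 1.01 ± 0.00703 in the flanks. This ratio remained lower in all 3 intervals, by -0.0646 in 11p15, -0.0293 in 11q12 and -0.0212 in 1q44 (adjusted p = 0.000651, 0.000651 and 0.00146). The part of read coverage in the difference of the deposited value was not tested further. In the left flank of 1q44, the third WT column stood apart with relative input reads of 1.14, where the other 11 columns lay between 1.01 and 1.03. Without that column the 1q44 difference was -0.144.

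G+C content differed along with the OG value. When the mean of each of 20 strata of equal G+C content was taken out of every column, the intervals lay at -0.0834 ± 0.0302 from bins of the same G+C content, and 12 of 12 columns were below 0. The difference from the flanks was then -0.0713 in the pooled bins, -0.121 in 11p15, -0.0841 in 11q12 and -0.0515 in 1q44 (exact sign-flip permutation test, adjusted p = 0.0013, 0.0013, 0.0013 and 0.0156). Input reads centred in the same way were also lower in the intervals, at -0.0573 ± 0.00932, in 12 of 12 columns. OG reads so centred were at -0.0646 ± 0.0128, also below 0 in 12 of 12 columns and close to the figure for input. At equal G+C content the intervals were thus lower in the OG value, in OG reads and in input reads. The part of input coverage in the centred OG value was not tested.

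The second comparison asked whether the low value follows the OR genes within the intervals. The OR-proximal bins were at 0.766, 0.771 and 0.799 in WT and at 0.703, 0.774 and 0.816 in MUTYH-/. They were at 0.758, 0.693 and 0.770 in OGG1-/ and at 0.795, 0.772 and 0.860 in DKO. The OR-distal bins lay between 1.05 and 1.21 in all 12 columns, so the 2 kinds of bins did not overlap. The difference was -0.344 ± 0.0646 and below 0 in 12 of 12 columns (exact two-sided sign-flip permutation test, p = 0.000488). It was -0.0757 after centring within G+C strata, -0.0631 in the ratio of OG to input reads and -0.269 with a limit of 10 kb (exact permutation tests, p = 0.000488 in each). Relative input reads were 0.910 ± 0.0166 in OR-proximal and 1.03 ± 0.00980 in OR-distal bins.

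By distance, bins overlapping an OR gene had a relative value of 0.825 ± 0.0822 (SD, n = 12). Bins up to 10 kb away were lower, at 0.717 ± 0.0467, and those from 10 to 50 kb were at 0.866 ± 0.0473. Values were 0.968 ± 0.0653 from 50 to 100 kb, 1.16 ± 0.0709 from 100 to 250 kb and 1.15 ± 0.0548 from 250 to 500 kb. The G+C content of these groups, in order of distance, was 38.7, 37.3, 40.2, 40.4, 43.3 and 44.3%. The OR gene bodies were thus not the lowest part, and the DNA just beside them was both lower in OG value and poorer in G and C. Centred within strata of equal G+C content, the groups were at -0.0761, -0.106, -0.119, -0.0340, -0.00248 and -0.0445. The lowest was then the group from 10 to 50 kb, and the ranges over columns overlapped. These groups also pool the intervals, and distance was not tested within each interval.

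**Figure D2:**
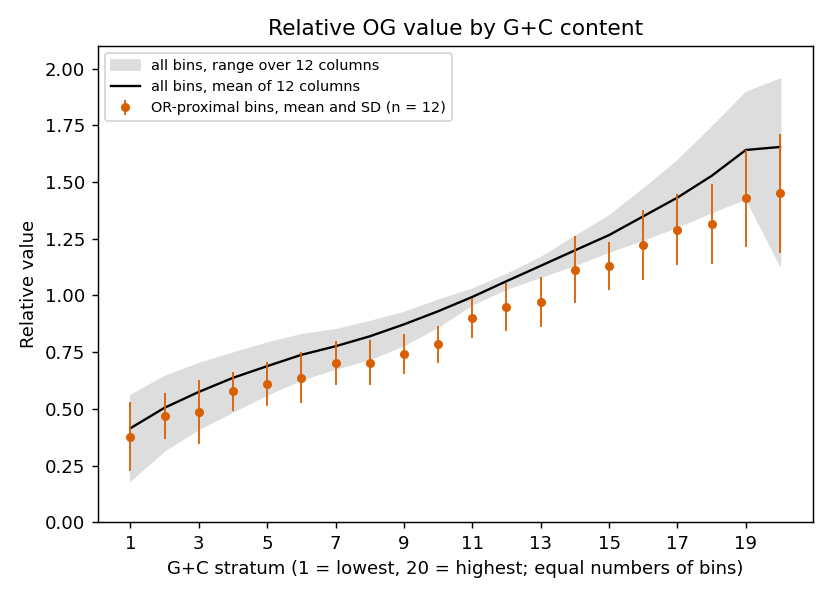
Relative OG value (y axis) in 20 strata of G+C content (x axis, lowest to highest, equal numbers of bins). The black line and grey band give the mean and range of all bins over 12 columns, and points with bars give the mean and SD of the OR-proximal bins. The OR-proximal mean lies below the mean of all bins in 20 of 20 strata.

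Within the strata, the OR-proximal mean was below the mean of all bins in 20 of 20, and in 4 of them in all 12 columns. In the stratum of 39.1 to 39.9% G+C, the OR-proximal bins were at 0.785 and all bins at 0.930, with 12 of 12 columns below. In the lowest stratum, up to 30.6% G+C, the values were 0.377 and 0.414 with 9 of 12 columns below. The OR-distal mean was below that of all bins in 14 of 20 strata and never in all 12 columns.

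Chromosomes 4, 13 and 18 are gene-poor and similarly rich in A and T (38.6% G+C) and served as a further reference. Their relative value was 0.830 ± 0.0342 (SD, n = 12), and the intervals were above it by 0.0244, in 9 of 12 columns (exact two-sided sign-flip permutation test, p = 0.022). This direction did not hold under other treatments of the data. Centred within G+C strata, the intervals were below these chromosomes by -0.0577 (exact permutation test, p = 0.000488), and without bins nearly free of input reads the difference was -0.0104 (p = 0.307). In the ratio of OG to input reads it was 0.00108 (exact permutation test, p = 0.684). Without the third column of each genotype it was 0.0152 (exact permutation test, p = 0.25). The OR-proximal bins were below these chromosomes by -0.0571 in 11 of 12 columns (exact permutation test, p = 0.000977), and by -0.0756 after centring (p = 0.000488).

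OR genes also lie elsewhere in the genome, and the 2508 bins that overlap them were compared with the 1193 bins overlapping OR genes in the intervals. The OR genes of the intervals were lower in the relative value, by -0.137 ± 0.0589 in 12 of 12 columns (exact sign-flip permutation test, p = 0.000488). The levels were 0.825 ± 0.0822 and 0.961 ± 0.0552. Relative input reads were 0.920 and 1.02 and the G+C contents 38.7 and 40.1%. After centring within G+C strata the difference was -0.0575 (exact permutation test, p = 0.00537).

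The intervals were not uniform along their length. The 63 windows of 100 kb in the intervals had a median relative value of 0.800 and a range of 0.488 to 1.61, while the 28395 windows of the genome had a median of 0.938. Of the 63, 51 lay below 1 and 27 below the 25th percentile of the genome. The 48 windows with an OR gene had a median of 0.743, and the 15 without had a median of 1.07. All 33 windows with at least 5 OR genes were below 1. Across the 63 windows the value went with G+C content (Pearson r = 0.964, Spearman rho = 0.938) and with input reads (r = 0.902). These correlations are descriptions over neighbouring windows that share libraries, and over all windows of the genome r with G+C content was 0.818.

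The lowest window was chr11:5700001-5800000 at 0.488, which holds 7 OR genes, among them OR52N5 and OR52N1, as well as part of TRIM5, a gene for an antiviral protein that binds retroviral capsids. Its columns ranged from 0.346 to 0.652 and its relative input reads were 0.664. Next were the neighbouring windows chr11:56000001-56100000 (0.570, 7 OR genes) and chr11:56100001-56200000 (0.581, 10 OR genes, among them OR8H2 and OR8K5). These 3 windows had G+C contents of 35.4, 35.3 and 34.3%.

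The 3 highest windows held no OR gene and lay close together in 11q12. They were chr11:57300001-57400000 at 1.61 (range over columns 1.37 to 1.89), chr11:57500001-57600000 at 1.49 and chr11:57600001-57700000 at 1.44. Their G+C contents were 50.9, 48.0 and 46.9%, and they hold 6, 5 and 4 protein-coding genes. Among these are SSRP1, a subunit of the histone chaperone FACT, TIMM10, a chaperone gene of the mitochondrial intermembrane space, and CLP1, a gene for RNA processing. The 700 bins of chr11:57200001-57900000, a gene-dense stretch singled out after its values were seen, had relative input reads of 1.12 ± 0.0263 and a ratio of OG to input reads of 1.07 ± 0.0244 (SD, n = 12).

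**Figure D3:**
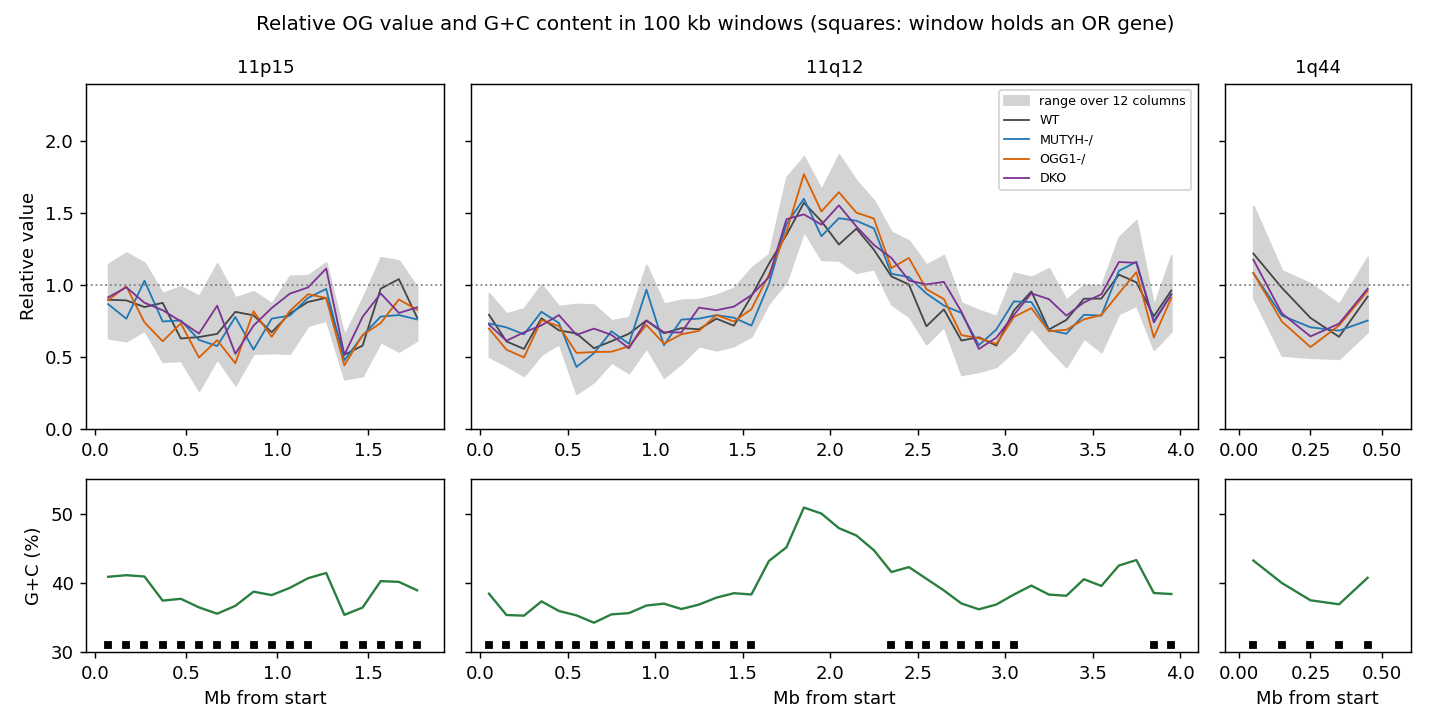
Relative OG value (top) and G+C content in percent (bottom) in 100 kb windows along each interval (x axis, Mb from its start). Lines are genotype means of 3 columns, the grey band is the range over 12 columns, and squares mark windows with an OR gene. In 11q12 the value reaches 1.61 where no OR gene lies and G+C content is at its highest (50.9%).

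Some stretches of 11p15 gave next to no reads in any of the 12 columns. They were singled out after the values were seen. The longer is chr11:5764001-5786000, 22 kb within the TRIM5 gene body that hold OR52N5 and most of OR56B2P. Input reads there were 1 in the third OGG1-/ column and 0 in the other 11, where between 610 and 788 would be expected from the column means. OG reads were 3, 0 and 0 in WT, 0, 0 and 3 in MUTYH-/, and 0 in all OGG1-/ columns. In DKO they were 40, 0 and 0, so 1 DKO column alone had more than 3.

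The shorter stretch, chr11:4947001-4955000, covers 8 kb within MMP26, a gene for a matrix metalloproteinase, with OR51A4 and OR51A2. Input reads were 0 to 7 per column, where 222 to 287 would be expected. OG reads were 0 to 6 in 11 columns and 20 in the first DKO column. The 10 kb before and after each stretch had relative input reads of 0.738 to 0.875. The 10 kb after the 22 kb stretch begin with bins at 0.126 and 0, followed by a bin at 1.06. Of the 100-base words in the 8 kb stretch 0.75% occurred elsewhere in the reference, and of those in the 22 kb stretch 0%, compared with 2.11% in all intervals. These 2 stretches thus held no more repeated words than the intervals at large. Whether the DNA is missing from this line or was lost in the processing was not tested.

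**Figure D4:**
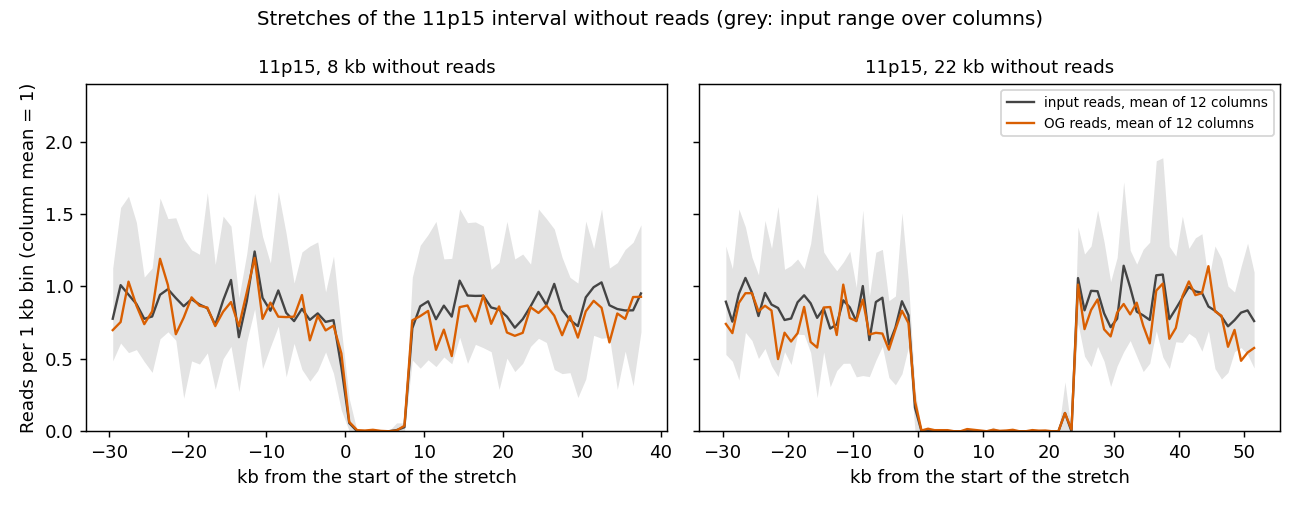
Input and OG reads per 1 kb bin (y axis, column mean = 1) around the 8 kb and the 22 kb stretch of 11p15 (x axis, kb from the start of the stretch). Lines are means of 12 columns and the grey band is the range of input reads. Both kinds of reads drop to near 0 across the stretch. Input reads averaged 0.738 to 0.875 of the column mean in the 10 kb on either side. After the 22 kb stretch these 10 kb begin with bins at 0.126 and 0.

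In these bins a relative value near 0 goes with an absence of both kinds of reads. In all, 32 of the 6320 interval bins (0.506%) had relative input reads under 0.1, compared with 1.14% of all bins, and 31 of the 32 were OR-proximal. Without such bins the difference from the flanks was -0.225 in the pooled intervals and -0.383 in 11p15, and that between OR-proximal and OR-distal bins was -0.340 (exact sign-flip permutation test, p = 0.000488 in each).

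Gene by gene, the 248 OR genes had a mean relative value of 0.872 ± 0.0837 (SD over 12 columns) and a median of 0.856. Of them 166 (66.9%) lay below 1, compared with 33.9% of the 60338 annotated genes. The 60 other protein-coding genes of the intervals had a mean of 1.18 ± 0.0752, and 22 of them lay below 1. OR genes averaged 39.3% G+C, these other genes 44.4% and all genes 45.1%. Centred within G+C strata, the OR genes were at -0.0671, with 9 of 12 columns below 0. Only 71 OR genes span at least 3 bins, and 60 of these lay below 1.

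The 101 class I genes, all in 11p15, had a mean of 0.940 ± 0.120 and the 147 class II genes one of 0.825 ± 0.0871. Class I was above class II by 0.115 in 10 of 12 columns (exact sign-flip permutation test, p = 0.0107, adjusted p = 0.043), but by -0.0125 after centring within G+C strata (adjusted p = 0.719). The classes had 40.6 and 38.4% G+C. Class and interval cannot be told apart here. The 136 protein-coding OR genes differed from the 112 others, mostly pseudogenes, by -0.0544 with 8 of 12 columns below 0 (exact sign-flip permutation test, adjusted p = 0.275), and by 0.0127 after centring.

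Among OR families with at least 8 genes, OR8 was the lowest at 0.694 ± 0.187 (18 genes, 35.1% G+C), followed by OR4 at 0.790 ± 0.273 (13 genes). OR9 (12 genes) and OR5 (76 genes), the largest, were at 0.839 ± 0.219 and 0.840 ± 0.121. OR56 was at 0.903 ± 0.208, OR51 at 0.909 ± 0.205, OR2 at 0.973 ± 0.404 and OR52, the highest, at 0.977 ± 0.165. The SD over columns exceeded the gap between neighbours in this order, so the order of neighbouring families is not resolved.

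**Figure D5:**
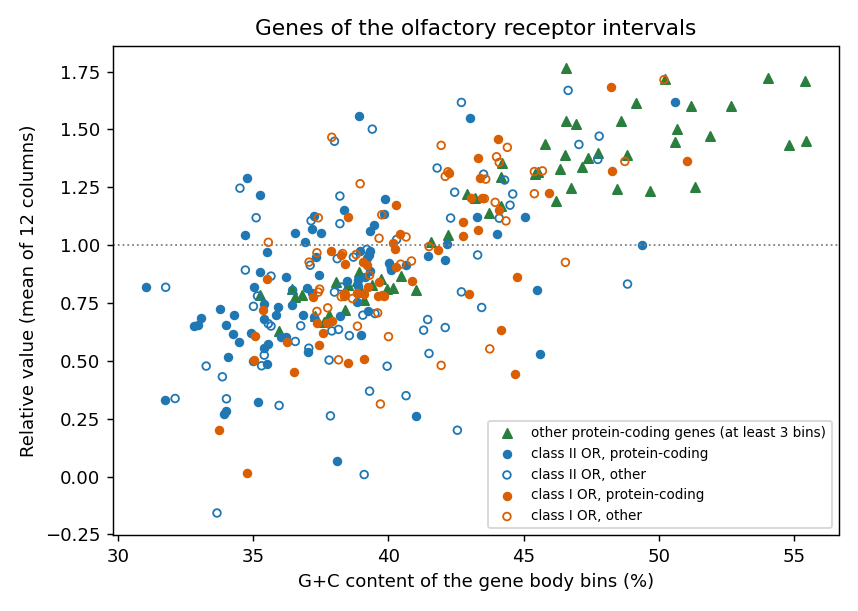
Mean relative value over 12 columns (y axis) and G+C content of the gene body bins in percent (x axis) of the genes in the intervals. Circles are 248 OR genes, filled when protein-coding, coloured by class, and triangles are other protein-coding genes with at least 3 bins. OR genes lie mostly below 1 (166 of 248), and values are higher at higher G+C content in OR and other genes alike.

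Of the OR genes annotated as protein-coding with at least 3 bins, the 5 lowest were OR52N5 (0.0157), OR56B2P (0.203), OR4P4 (0.269), OR10AG1 (0.331) and OR52N1 (0.450). OR56B2P has the name of a pseudogene and entered this group through its annotation. OR52N5 and OR56B2P lie wholly or in part in the 22 kb without reads, and their relative input reads were 0 and 0.207. OR4P4 (chr11:55635113-55640309) was different, with relative input reads of 0.913 and a G+C content of 33.9%. Its columns ranged from -0.30 to 1.37. OR10AG1 (chr11:55965755-55969945) had relative input reads of 0.821 and a G+C content of 31.7%.

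The 5 highest were OR51D1 (1.32), OR9G1 (1.22), OR4C6 (1.20), OR51I2 (1.17) and OR5A2 (1.14). OR51D1 (chr11:4637477-4643060) had the highest G+C content of these at 48.3% and a range over columns of 0.569 to 2.46. OR9G1 (chr11:56699095-56703884) had only 35.2% G+C, while its relative input reads were 1.26. Ranges over columns of both overlap 1, and these gene bodies span 7 and 5 bins.

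Of a list of 23 OR genes that includes some with known ligands, 17 span at least 3 bins. Their median was 0.822 and 15 of 17 lay below 1. OR51E2 (chr11:4680171-4697854), a receptor of short fatty acids that is also made in prostate, was at 0.781 (range over columns 0.297 to 1.31), and its neighbour OR51E1 at 0.788. OR5AN1, which responds to musk odorants, was at 0.976, and OR5A1, the receptor for beta-ionone, at 0.975. The lowest of the list was OR51L1 at 0.568 and the highest OR9G1 at 1.22.

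The other genes of the intervals ran higher, with a median of 1.24 over all 60 other protein-coding genes. Of 27 listed non-olfactory genes 24 lay in the intervals with at least 3 bins. These had a median of 1.39, above that of the 60, and 6 lay below 1. The highest were APLNR, a receptor for apelin (1.72), P2RX3, an ATP-gated channel of sensory neurons (1.72), and TNKS1BP1 (1.71). The lowest were MMP26 (0.696), which spans 289 bins among OR51 genes, and ZFP91 (0.776). NLRP3 in 1q44, the sensor of an inflammasome, was at 1.33. Of the 8 tripartite-motif (TRIM) genes, TRIM5 was the lowest at 0.670, with the 22 kb without reads in its gene body, and TRIM21 the highest at 1.25, with a median of 1.08 and 3 below 1.

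The third comparison set each knockout against WT within the intervals. No difference between a knockout and WT passed the test. WT had a pooled relative value of 0.853 ± 0.0153 (SD, n = 3), MUTYH-/ one of 0.845 ± 0.0407, OGG1-/ one of 0.831 ± 0.0302 and DKO one of 0.889 ± 0.0336. The differences from WT were -0.00786, -0.0221 and 0.0363 (exact two-sided permutation tests of 3 columns against 3, p = 0.9, 0.5 and 0.2, where 0.1 is the smallest p possible, and adjusted p = 1, 0.9 and 0.6 over 12 differences). In size, the MUTYH-/ difference was below the SD of both groups, and the OGG1-/ difference was above the WT SD and below its own. The DKO difference was above the SD of both groups, and 2 of 3 DKO columns were above every WT column.

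In 11q12 the DKO columns were at 0.903, 0.917 and 0.941 and the WT columns at 0.874, 0.872 and 0.873, so these groups did not overlap. The difference was 0.0475, at the smallest p the test can give (exact permutation test, p = 0.1, adjusted p = 0.6). MUTYH-/ differed from WT in 11q12 by 0.0172 and OGG1-/ by 0.00122. In 11p15 the respective differences of MUTYH-/, OGG1-/ and DKO were -0.0367, -0.0546 and 0.0328. In 1q44 they were -0.103, -0.0906 and -0.0403, where WT columns were at 0.876, 0.833 and 1.01, the last being the column that stood apart in the left flank. Without it they were -0.0506, -0.0378 and 0.0125.

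The genotypes also form a 2 by 2 design. OGG1-deficient columns (OGG1-/ and DKO) differed from the other 6 by 0.011 (exact two-sided permutation test of 6 against 6, p = 0.615), and MUTYH-deficient columns (MUTYH-/ and DKO) from the other 6 by 0.0253 (p = 0.229). The step from interval to flanks was also compared between genotypes. In 11p15 it was more negative in OGG1-/ than in WT by -0.099 and in 1q44 in MUTYH-/ by -0.0745, in each case with no overlap of the 3 against 3 columns (exact permutation test, p = 0.1 in both, the smallest possible). The other 10 such differences overlapped.

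No 100 kb window of the intervals was called in a knockout by limma (adjusted p under 0.05). Over the genome, MUTYH-/ had 0.00356% of 28123 windows called, and OGG1-/ and DKO had 0%. At an unadjusted p under 0.05, 2, 4 and 2 of the 63 windows passed, compared with 3.36, 4.64 and 4.41% of all windows. The medians of the log2 change over the 63 windows were -0.0036, -0.048 and 0.054 in MUTYH-/, OGG1-/ and DKO.

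In the fit over gene bodies by limma, 0 of the 71 OR genes with at least 3 bins were called in any knockout, as were 0% of the 36810 genes tested. At an unadjusted p under 0.05, 2, 0 and 2 OR genes passed in the order MUTYH-/, OGG1-/ and DKO, compared with 4.21, 4.67 and 4.94% of all genes. The difference in relative value was above 0 in 39, 26 and 47 of the 71 OR genes, with medians of 0.0754, -0.0437 and 0.0881. The comparisons share the WT columns.

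The largest gain in MUTYH-/ and in OGG1-/ was that of OR4C11 (chr11:55602360-55607645). Its WT columns were at 0.10, -0.34 and -0.13. The MUTYH-/ columns were at 2.68, 0.228 and 1.28, the OGG1-/ columns at 0.594, 1.28 and 0.550 and the DKO columns at 0.831, 0.929 and 0.376. All 9 knockout columns were above the 3 WT columns, which are shared by the 3 comparisons and were low. The differences were 1.52 ± 0.527 (SE), 0.931 ± 0.527 and 0.836 ± 0.527 (limma, adjusted p = 1, 0.984 and 0.991).

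The largest gain in DKO was that of OR51I2 (chr11:5449323-5456518), with WT columns at 0.908, 0.00017 and 1.05 and DKO columns at 2.31, 1.71 and 1.83. These groups did not overlap, and the difference was 1.29 ± 0.454 (SE, limma, adjusted p = 0.984). The largest losses were those of OR5T2 in MUTYH-/ (-1.05 ± 0.584, adjusted p = 1), OR51H1 in OGG1-/ (-0.782 ± 0.516, adjusted p = 0.984) and OR8K3 in DKO (-0.775 ± 0.487, adjusted p = 0.991), all by limma. OR5T2 was at 0.650, 1.26 and 1.70 in WT and at 0.189, 0.0561 and 0.215 in MUTYH-/, without overlap. Being the extremes of 71 genes, these values are a description.

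At 1 kb, 6279 interval bins could be tested for differential enrichment (OG-DERs, p at most 0.01 and a log2 change beyond 0.5, by limma). In MUTYH-/ 10 bins were higher and 11 lower than in WT, compared with 0.316 and 0.302% of all bins. In OGG1-/ 8 were higher and 11 lower (0.302 and 0.242% of all bins) and in DKO 9 were higher and 12 lower (0.309 and 0.292%). With adjustment for multiple tests 0 interval bins were called in each knockout, and at an unadjusted p under 0.05 there were 237, 205 and 252, compared with 4.37, 4.06 and 4.29% of all bins tested. In the same order of knockouts, OG-DERs made up 0.293, 0.251 and 0.188% of the 4785 OR-proximal bins tested. Of the 1494 OR-distal bins tested they made up 0.469, 0.469 and 0.803%, and the difference between these classes was not tested.

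Enrichment by rank was less frequent in the intervals than over all bins. How it compared with the gene-poor reference chromosomes depended on the treatment of G+C content. A bin was called OG-enriched (OG-EB) if 2 or more columns of a genotype placed it in their top part, from the 95th percentile of the column upwards. The ranks are those of the relative value, which is a difference from input. The study instead ranked the log2 ratio of OG to input and also asked for agreement of technical replicates. Its OG-EBs are therefore a different set, and the shares here are not to be set against its counts. In the order WT, MUTYH-/, OGG1-/ and DKO, the intervals held 36, 41, 40 and 47 OG-EBs, or 0.57, 0.649, 0.633 and 0.744% of their bins. The shares over all bins were 1.34, 1.33, 1.54 and 1.3%. In the gene-poor reference chromosomes they were 0.588, 0.574, 0.602 and 0.562%. The intervals were thus slightly below these chromosomes in WT and above them in each knockout. Centred within G+C strata, the shares were 0.475, 0.506, 0.506 and 0.554% in the intervals. They were 0.587, 0.593, 0.600 and 0.599% in these chromosomes, so the intervals were then below them in every genotype. None of these differences was tested. In OR-proximal bins the shares were between 0.352 and 0.456%, and in OR-distal bins between 1.27 and 1.67%. No interval bin was an OG-EB in all 4 genotypes, compared with 888 bins (0.0313%) of the genome and 9 bins (0.00241%) of the gene-poor chromosomes. With shares this low, the absence of such bins from the intervals cannot be read as a deficit. In single columns 2.65 ± 0.410% (SD, n = 12) of the OR-proximal bins and 6.02 ± 0.442% of the OR-distal bins reached the 95th percentile.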

How the data were processed

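OG-seq libraries of 4 genotypes (3 columns each) were analysed from a table of 1 kb bins of GRCh38. The authors trimmed reads with cutadapt 2.8, mapped them with Bowtie2 2.3.5.1, marked duplicates and used bedtools to count reads in bins. They removed blacklisted and incomplete bins, and subtracted input reads scaled by signal extraction scaling. The deposited score is this difference on a linear scale in OG reads, so it can lie below 0. Reads of 100 bases cannot be placed uniquely in some repeated sequence, and subtraction adds the counting error of the input to that of the pulldown.

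Each column was divided by its mean over all bins, which stands in for the inter-library factor of the study. Whole OG reads and reads of 2 input runs were recovered from the scores for 99.9988% of the bins or more in every column, and for all interval bins. These counts give the depth (59595212 to 113907880 OG reads per column). Genes came from GENCODE 44. Bins were OR-proximal within 50 kb of an annotated OR gene, and G+C strata (20) were of equal size, with bins over 500 undetermined bases left out. A 100-base word was repeated if it occurred elsewhere in the reference on either strand, at steps of 10 bases.

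Intervals were compared with other regions within columns by exact two-sided sign-flip permutation tests, and genotypes by exact permutation tests, with Benjamini-Hochberg adjustment. Windows of 100 kb with at least 50 bins (log2 of the mean relative value), gene bodies of at least 3 bins (relative value) and single bins were fitted over the whole table with limma 3.58.1 in R 4.3.3, with all 12 columns sharing the spread. Bins were fitted on log2(value + 1) with values below 0 set to 0, and needed a value above 0 in at least 3 columns. A genotype near or below 0 in a bin thus gives a large log2 change. At chr11:57556001-57557000, for example, WT values were -5.19, -2.29 and -1.59 and the change in MUTYH-/ was 4.86. The prior degrees of freedom of that fit were infinite, so that each bin took the variance of the trend. A count model was not used because the deposited scores are not counts. Other steps used Python 3.11.15, numpy 2.4.6, pandas 2.3.3, scipy 1.17.1 and matplotlib 3.10.9. The tests and the recovery of reads were tested on simulated data.

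The members and gene lists were chosen with earlier results of these data known. Genes named are those of the lists (olfactory receptors, other genes, TRIM genes), the 5 highest and 5 lowest protein-coding OR genes, the OR genes at both ends of the differences of each knockout, and the 3 highest and 3 lowest windows. The other genes named were chosen after their values were seen. Tests on input reads and their ratio to OG reads, on single flanks, on OR genes elsewhere, on OR classes and without bins nearly free of reads were added after the data were seen. Column numbers were checked as a pairing: deviations of windows from genotype means correlated with a mean r of -0.018 over 18 pairs of columns with the same number, 3 of them above 0.1, so the numbers were not taken to pair columns. RNA-seq and mass spectrometry were not analysed here. Some sequences are not reported here.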

Additional observations from a re-analysis of the deposited data

Results flagged for a closer look

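Within the 6 OGG1-proficient columns (WT and MUTYH-/), 1 column stood apart from the rest in the 11q12 interval. The third MUTYH-/ column had a relative value of 0.933, while the other 5 lay between 0.868 and 0.874, so that its gap to the nearest of them was 0.906 of the whole range. It was found among 32 sets of 6 columns examined with a limit on the gap that chance passes in about 1 of 20 sets.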

How the results depend on the processing

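Of 195 results recomputed under an alternative, 163 kept their direction and their side of the threshold. The differences between intervals and flanks and between OR-proximal and OR-distal bins did so except for 11q12 with flanks of 1 Mb (0.0145). The exact tests of a knockout against WT could not change sides, because 3 columns against 3 give no p below 0.1. For these only the direction could change. Leaving out each column number in turn gave -0.232 to -0.205 for the pooled intervals against flanks. The difference from chromosomes 4, 13 and 18 was -0.0577 within G+C strata, -0.0104 without bins nearly free of reads, 0.00108 in the ratio of OG to input reads, and 0.0152 to 0.0319 with a column number left out. The cause was not tested.

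The pooled difference from WT, which could not pass the test with so few columns, was 0.746 in MUTYH-/ and 1.20 in OGG1-/ in unscaled deposited units. It was 0.00324 in MUTYH-/ with values below 0 set to 0. With a column number left out it was -0.0213 to 0.0116 in MUTYH-/. In DKO it was 0.0125 in 1q44 without the third WT column. Within G+C strata, class I minus class II was -0.0125 and protein-coding minus other OR genes 0.0127. In the order WT, MUTYH-/, OGG1-/ and DKO, OG-EBs numbered 0, 0, 4 and 0 at the 99th percentile and 2, 1, 4 and 0 when asked for in 3 of 3 columns. Within G+C strata they numbered 30, 32, 32 and 35. OG-DERs numbered 58, 48 and 61 without the filter on low values and 0, 0 and 0 with adjusted p. With a column number left out they were 7 to 19 in MUTYH-/, 7 to 11 in OGG1-/ and 11 to 14 in DKO, in part because fewer columns were fitted.

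With the column number as a replicate block, the pooled differences were -0.00786, -0.0221 and 0.0363, 21, 20 and 22 interval bins were called, and 0 windows and 0 OR genes. A number is not known to mark a shared culture, and 4 of 12 columns correlated best with a column of their own number. With these depths, the level of a single bin or short gene is loosely measured.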
